A study of Gallus gallus with 53 samples.

Results

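The response of wild type DT40 cells, a chicken B cell line, to stimulation of the B cell receptor (BCR) was set against their response to ligation of CD40. The comparison took the 5 columns with 10 μg/ml anti-IgM (antibody M4, which crosslinks the BCR) and the 5 columns with 6 μg/ml CD40 ligand (CD40L), paired by time at 15, 30, 45, 60 and 90 min. Curves fitted over time, given further below, drew on all 53 columns of the series. With the unstimulated wild type column at 0 min, the base of all directions and changes against 0 min, the columns compared are 11 of the 53. They were chosen by their labels and by no measured value. The other columns hold wild type cells at lower doses (0.1 or 1 μg/ml of the antibody, 1 or 3 μg/ml of the ligand, 20 columns), wild type cells pre-treated for 30 min with the MEK inhibitor U0126 (WT + Inh, 11 columns) and IKKβSA cells (11 columns). Both of these cell conditions were stimulated at the highest doses and at the same 5 times. The inhibitor dose is 5 mM in the labels and 5 μM in the study's methods, and the wording of these methods leaves it unclear whether IKKβSA cells also received it. IKKβSA cells carry a knock-in that replaces activating serines of the kinase IKKβ with alanine. The sources used here do not say how many clones were used.

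The BCR is a surface immunoglobulin whose crosslinking by antigen starts a cascade of tyrosine kinases and, through it, calcium release, the MEK and ERK kinases and the IKK and NF-κB pathway. CD40 is a receptor of the tumour necrosis factor receptor family that T cells engage through CD40L, and it acts through TRAF adaptor proteins, mainly on IKK and NF-κB. U0126 blocks MEK, the kinase that activates ERK, and IKKβSA cells lack an activatable IKKβ. Both receptors change transcription in B cells, and their target genes overlap in part.

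The RNA was hybridised to GeneChip Chicken Genome arrays of Affymetrix, on which a gene is read by 1 or more probe sets. Each column combines 2 biological replicates according to the labels, so no spread between replicates can be computed, and errors here come from the scatter of columns around a line or curve over time. The doses are the highest of each agent in the series and are not matched in strength, so every difference below belongs to this pair of doses. Since unstimulated cells were measured at 0 min only, drift of the culture and response to a stimulus cannot be told apart in a single course. A drift common to both stimuli cancels in their difference at one time. A constant offset between the BCR and the CD40 columns would not cancel, and it cannot be told apart from a response here. Column medians lay between 2.742 and 2.952 in intensity over all 53 columns, lowest in the unstimulated wild type column. Across all probe sets the BCR and CD40 columns correlated at r = 0.9965 at 15 min and at r = 0.992 at 90 min, a description across probe sets and not across samples.

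The probe set IDs, as a body, are not matched to the values deposited beside them. The 672 IDs that the study lists for its BCR response had a median largest change after BCR stimulation of 0.278 on the log2 scale, against 0.275 for all rows, and 9 of them changed 2-fold or more. Of the 26852 probe sets tested further below, 567 (2.11%) changed at least 2-fold after BCR stimulation and also passed a test. Bright rows (mean intensity of 50 or more) whose IDs carry 1 gene symbol resembled each other, with a median correlation of 0.35 over the columns for 727 symbols, against 0.046 for 379 pairs of neighbouring bright rows with different symbols. Rows are therefore described by rank, size and profile. No row is named as a gene, and the identity of the cells could not be checked against B cell markers.

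After BCR stimulation, a small group of probe sets stood far above their level after CD40 ligation, while most differences were small. Of 26852 probe sets tested, 2052 (7.64%) were on average higher after BCR stimulation than after CD40 ligation over the 5 times and 2343 (8.73%) were lower (limma on the 10 columns with time as a factor, adjusted p under 0.05). The median size of these 4395 mean differences was 0.263 on the log2 scale, and their 90th percentile was 0.5. A mean difference of at least 2-fold was found for 54 probe sets higher after BCR stimulation (0.201% of those tested) and for 2 lower (0.00745%). The standard error of a mean difference had a median of 0.0731. The 5 differences had 1 sign in 3140 of the 4395 probe sets (71.4%), against 19.7% of all tested, a property that the test itself favours. At 15 min the difference had the sign of the mean in 3790 of them (86.2%), with a median size of 0.173, against 0.368 at 90 min. The 15 min difference is part of that mean, so the test favours this agreement too, and the share over all tested is not given. Neither course was itself called against 0 min in 2007 of the 4395 (45.7%), while the BCR course alone was called in 1546, the CD40 course alone in 358 and both in 484. Over all 26852 tested, the BCR course was called in 19.1%, the CD40 course in 6.57% and both in 1193 probe sets. Without the 45 min columns 2830 mean differences were called and without the 90 min columns 2696, and a fit with no term for a change of the difference with time called 2500.

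The probe set with the largest mean difference stayed near the column medians after CD40 ligation and rose steeply after BCR stimulation. Its intensity was 14.4, 169.5, 354.1, 415.9 and 395.4 at 15, 30, 45, 60 and 90 min after BCR stimulation, against 4.29, 4.92, 5.58, 4.5 and 3.85 after CD40 ligation and 4.18 at 0 min. The ranges did not overlap, and the difference on the log2 scale widened up to 90 min, where it reached 6.68. The mean difference was 5.21 on the log2 scale (standard error 0.24, adjusted p = 5.07e-13 from limma), a 37.0-fold higher level. The CD40 values lay close to the column medians, so the fold rests on a level that may be near background.

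The probe sets of ranks 2 and 3 reached their highest level early and then declined. The second had 215.2, 266.3, 136.3, 69.6 and 42.2 at the 5 times after BCR stimulation, against 7.502, 9.85, 11.1, 6.25 and 4.99 after CD40 ligation, with 6.53 at 0 min. Its mean difference was 3.96 (standard error 0.08, adjusted p = 9.86e-19), and the difference changed by -1.92 on the log2 scale between 15 and 90 min (adjusted p = 3.24e-05). The third, the brightest of these, had 1034.4, 1282.5, 722.8, 399.1 and 230.7 after BCR stimulation, against 45.2, 60.2, 68.4, 44.3 and 23.0 after CD40 ligation, with 38.6 at 0 min. In both, all 5 BCR values lay above all 5 CD40 values, and the CD40 values were highest at 45 min, after the BCR values had passed their highest point. The mean difference of the third was 3.77 (standard error 0.08, adjusted p = 1.05e-18). Its intensities after CD40 ligation are well above the column medians, so its 13.6-fold mean difference does not rest on a dim level.

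The probe sets of ranks 4 and 5 rose later and stayed up. The fourth had 12.9, 63.6, 121.9, 148.8 and 162.4 after BCR stimulation, against 7.33, 8.003, 8.54, 5.40 and 4.47 after CD40 ligation, with 7.67 at 0 min. The fifth had 4.88, 62.0, 180.5, 236.8 and 214.1 after BCR stimulation, against 4.29, 5.44, 11.9, 14.2 and 9.71 after CD40 ligation, with 4.61 at 0 min. It was the only one of the 5 that was also called after CD40 ligation (largest change 1.62 on the log2 scale, adjusted p = 0.00717), and both courses were highest at 60 min. At 15 min its BCR and CD40 values were within 1 intensity unit of each other, so the difference in this probe set appeared between 15 and 30 min.

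**Figure D1:**
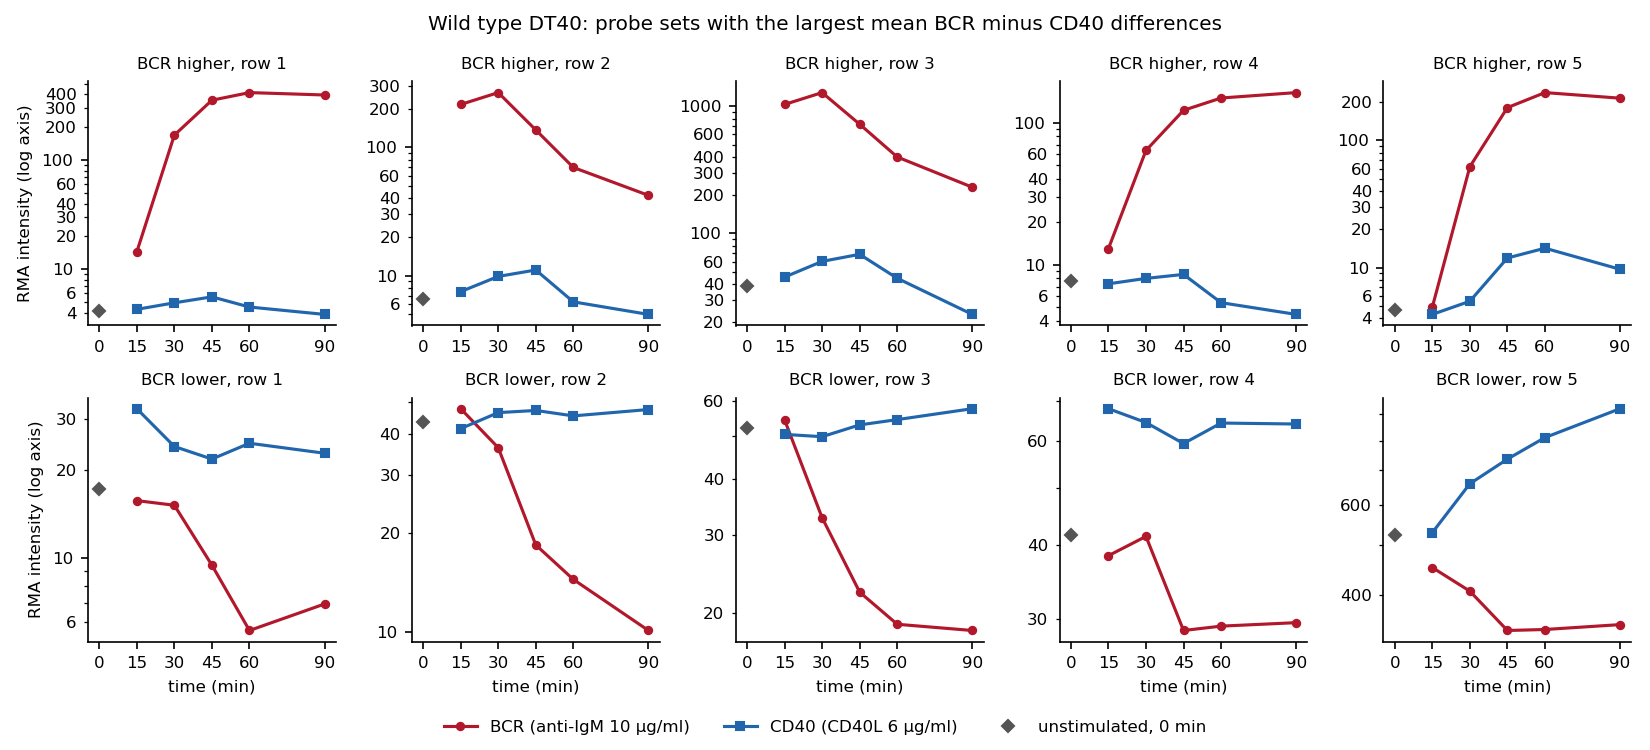
Intensity on a log axis against time in min for the 5 probe sets with the largest positive (top) and the 5 with the largest negative (bottom) mean BCR minus CD40 differences in wild type cells, among those with a mean intensity of at least 10. Red circles are BCR columns, blue squares CD40 columns and the grey diamond is the unstimulated column, each point being 1 column of 2 combined replicates; in the top panels the BCR curves leave the CD40 curves by 30 min at the latest, and in the bottom panels the BCR curve lies below and the CD40 curve above the level at 0 min from 45 min on.

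Probe sets lower after BCR stimulation than after CD40 ligation showed smaller differences. The largest, with a mean difference of -1.36 (standard error 0.10, adjusted p = 3.67e-09), had 15.7, 15.2, 9.42, 5.61 and 6.92 after BCR stimulation, against 32.6, 24.2, 21.9, 24.8 and 22.9 after CD40 ligation, with 17.3 at 0 min. Here BCR values lay below and CD40 values above the level at 0 min at every time. Its BCR course was called (adjusted p = 1.85e-07, limma F-test) but its CD40 course was not (adjusted p = 0.0968). The next had 47.6, 36.2, 18.4, 14.4 and 10.1 after BCR stimulation, against 41.4, 46.3, 47.0, 45.2 and 47.3 after CD40 ligation, with 43.4 at 0 min. It thus began slightly higher after BCR stimulation and ended 4.69-fold lower, with CD40 values that stayed near the level at 0 min (mean difference -1.08, adjusted p = 1.65e-09).

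The third had the same shape, with 54.4, 32.8, 22.3, 18.9 and 18.3 after BCR stimulation, against 50.4, 49.8, 52.98, 54.4 and 57.6 after CD40 ligation. The fourth differed already at 15 min, with 38.3, 41.3, 28.6, 29.1 and 29.5 after BCR stimulation, against 68.0, 64.4, 59.3, 64.3 and 64.0 after CD40 ligation, with 41.6 at 0 min. Its BCR course was not called (adjusted p = 0.111) while its CD40 course was (largest change 0.71, adjusted p = 0.0246), so in this probe set the CD40 side moved more. The fifth, a bright one, had 452.4, 406.8, 340.9, 342.4 and 350.0 after BCR stimulation, against 529.1, 659.1, 736.2, 811.0 and 923.3 after CD40 ligation, with 523.1 at 0 min. Both of its courses were called, by -0.62 after BCR stimulation (adjusted p = 4.2e-06) and by 0.82 after CD40 ligation (adjusted p = 6.18e-09).

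Changes of the difference with time were called in few probe sets, and more often downward than upward. The difference changed with time in 887 probe sets (3.3% of those tested, limma, adjusted p under 0.05), upward in 242 and downward in 645, by a median of 0.855 between 15 and 90 min (median standard error over all tested 0.212). The fitted gap was wider at 90 than at 15 min in 850 of the 887 (95.8%) and narrower in 37. In 589 the fitted difference, a straight line over time, turned sign between 15 and 90 min. Such a turn also arises where the stimuli hardly differed at 15 min and parted later. It therefore does not show that a gap closed and reversed. The share of wider gaps over all tested probe sets is not given here, so these counts describe the called ones only. Without the 90 min columns the number called was 287.

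The change with time lay mostly on the BCR side. Between 15 and 90 min the slope over time was called in 978 probe sets upward (3.64%) and 2646 downward (9.85%) after BCR stimulation, against 255 upward (0.95%) and 202 downward (0.752%) after CD40 ligation. Of the 242 probe sets whose difference rose, 212 had a BCR slope called upward and 19 a CD40 slope called downward. Of the 645 whose difference fell, 547 had a BCR slope called downward and 76 a CD40 slope called upward. Because slope and change share the same columns, these counts describe the calls and are no further test.

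Among the rising differences, the first 3 are those of ranks 1, 4 and 5 above. The fourth was close in profile to the third, with 8.42, 63.8, 229.4, 278.4 and 241.8 after BCR stimulation, against 6.26, 8.12, 15.2, 22.8 and 14.7 after CD40 ligation. The IDs of these 2 rows carry the same symbol. Since IDs and values as a body do not match, this does not show that both read 1 transcript, which was not tested. The fifth was dim and climbed to the last time, with 4.43, 6.61, 12.0, 25.3 and 45.8 after BCR stimulation, against 4.14, 4.74, 5.82, 6.33 and 8.21 after CD40 ligation, with 3.98 at 0 min. Both of its courses rose at every step, and the difference grew by 2.55 on the log2 scale (standard error 0.25, adjusted p = 1.59e-06).

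Among the falling differences, the second ranked had 95.8, 95.9, 66.8, 43.0 and 30.3 after BCR stimulation, against 92.5, 100.5, 128.9, 132.7 and 126.7 after CD40 ligation, with 97.8 at 0 min. The BCR and CD40 values were close at 15 and 30 min and parted from 45 min on, in opposite directions (change of the difference -2.34, standard error 0.19, adjusted p = 1.74e-07). The third ranked had the same shape, with 57.2, 55.4, 43.6, 26.6 and 18.7 after BCR stimulation, against 54.7, 62.1, 75.5, 78.0 and 76.8 after CD40 ligation. The fourth ranked had 44.4, 40.0, 29.2, 18.6 and 10.6 after BCR stimulation, against 40.0, 43.8, 43.2, 44.1 and 38.6 after CD40 ligation, so that here only the BCR values moved far from the 48.2 at 0 min.

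Taking each time by itself, differences of at least 2-fold appeared first where BCR stimulation gave the higher level. Among all tested probe sets, 27 were at least 2-fold higher and 5 at least 2-fold lower after BCR stimulation than after CD40 ligation at 15 min. At 30 min the numbers were 60 higher and 2 lower, at 45 min 71 and 16, at 60 min 81 and 75, and at 90 min 145 and 121. At this cut higher levels thus prevailed until 45 min, and from 60 min on the numbers were closer. The order depended on the cut. At 0.5 or more on the log2 scale, 199 were higher and 241 lower at 15 min. The numbers were 428 and 219 at 30 min and 394 and 401 at 45 min. Lower levels then prevailed, with 416 higher and 1022 lower at 60 min and 608 and 1166 at 90 min. The median absolute difference over all tested probe sets was 0.116 at 15 min and 0.147 at 90 min, so the bulk of probe sets differed little between the stimuli. With 1 column per stimulus and time, these numbers carry no test.

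A curve fitted to each course took up any shape of difference. The courses differed in 4345 probe sets (16.2%, limma F-test over all 53 columns, adjusted p under 0.05), and in 2442, 2554 and 2266 without the 45, 60 and 90 min columns. Of these, 176 differed at least 2-fold with the higher level after BCR stimulation (0.655% of those tested) and 156 with the lower (0.581%). The 176 were spread over all onsets: the difference first passed 2-fold at 15 min in 26, at 30 min in 35, at 45 min in 25, at 60 min in 23 and at 90 min in 67. The 156 were late, with 5, 2, 15, 59 and 75 at the same times. By 45 min 48.9% of the higher and 14.1% of the lower ones had passed 2-fold. In the 176 the largest difference was above 8-fold in 11 and above 4-fold in 33, against 0 and 4 in the 156.

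In most of these probe sets the BCR values had moved farther from 0 min than the CD40 values. At the time of the largest difference the BCR change against 0 min exceeded the CD40 change in 154 of the 176 and in 115 of the 156. The share over all tested is not given. At that time the BCR and CD40 changes had opposite signs in 99 of the 176 and in 100 of the 156, so the CD40 values often added to the difference. The BCR course alone was called in 112 of the 176, the CD40 course alone in 11, both in 47 and neither in 6. Of the 156 it was the BCR course alone in 89, the CD40 course alone in 20, both in 33 and neither in 14. As background, 19.1% of all tested probe sets were called in the BCR course and 6.57% in the CD40 course. The rule chose these probe sets on a difference between the same columns, so these counts are a description.

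Of the 61 that passed 2-fold at 15 or 30 min with the higher level after BCR stimulation, 40 were still 2-fold apart at 90 min. Of the 7 that did so with the lower level it was 3. Among all that had passed 2-fold before 90 min, 78 of 109 with the higher and 46 of 81 with the lower level were 2-fold apart at 90 min. The 26 earliest had a median BCR change of 1.27 at 15 min, 2.28 at 30 min and 1.28 at 90 min on the log2 scale, while their median CD40 change was -0.01 at 15 min, 0.25 at 30 min and -0.49 at 90 min. Their BCR level therefore fell after 30 min while the CD40 level went below that at 0 min, and the median difference at 90 min was still 1.66.

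In the groups with onset at 45 min or later, the BCR medians at the onset lay farther from 0 than the CD40 medians. The 59 that were 2-fold lower first at 60 min had a median BCR change of -1.02 at 60 min and -0.86 at 90 min, and the 15 first lower at 45 min had -1.21 at 45 min and -1.16 at 90 min. The 67 that passed 2-fold first at 90 min had a median BCR change of 0.20 at 30 min and 1.06 at 90 min, against a CD40 change of -0.07 and -0.12. The 75 that were 2-fold lower first at 90 min had a median BCR change of -0.12 at 30 min, -0.60 at 45 min and -1.02 at 90 min, against -0.06, -0.04 and 0.13 after CD40 ligation. In the 5 that were lower from 15 min on it was the reverse, with a median BCR change of -0.18 and a median CD40 change of 0.92 at 15 min.

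**Figure D2:**
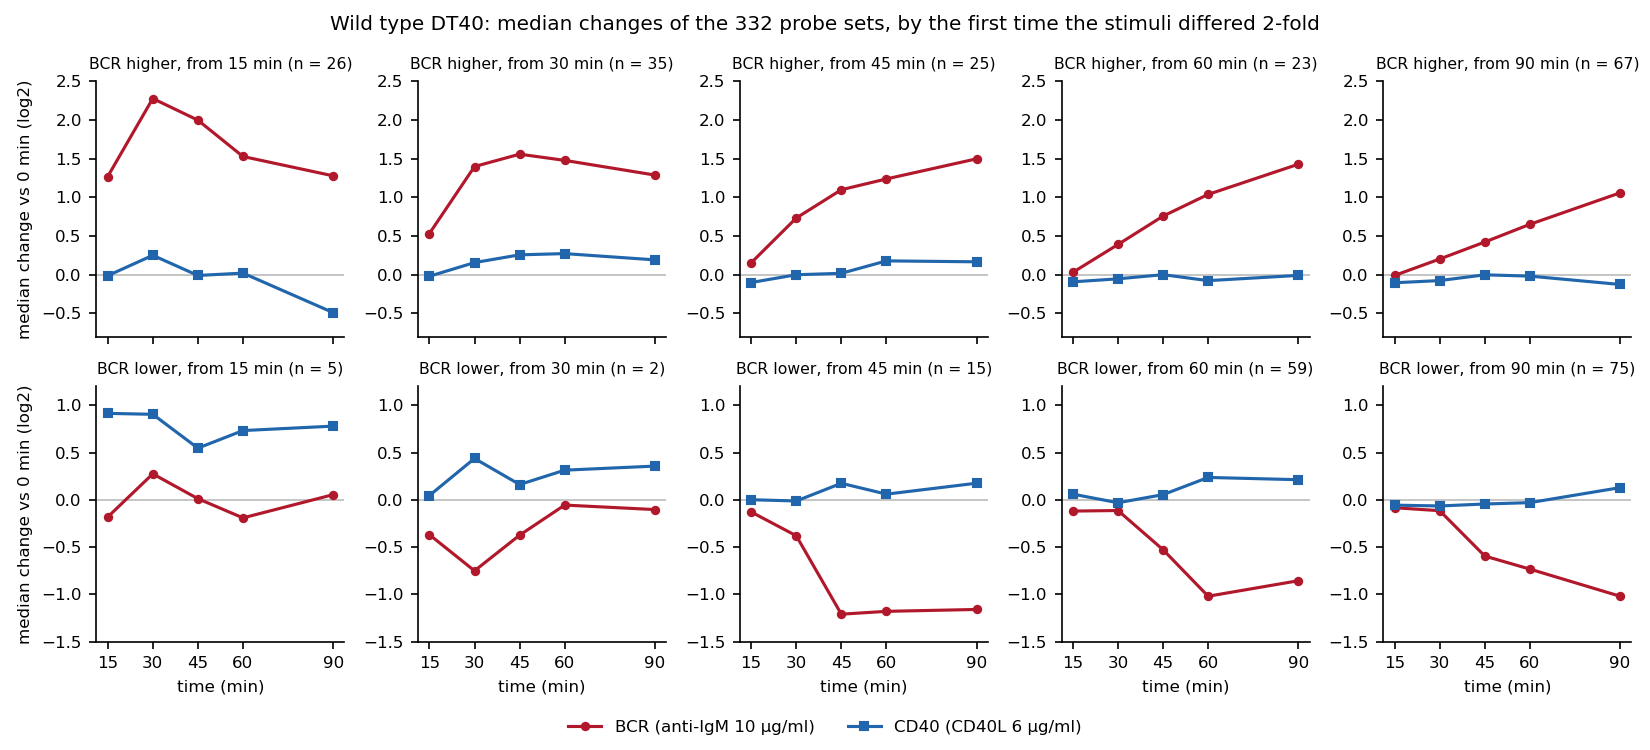
Median change against 0 min on the log2 scale after BCR stimulation (red circles) and CD40 ligation (blue squares), against time in min, for the 176 probe sets with at least 2-fold higher (top) and the 156 with at least 2-fold lower (bottom) BCR level, divided by the time at which the difference first passed 2-fold (n above each panel). Lines join medians over probe sets and carry no error; from the onset on, the BCR medians carry most of the distance from 0 in the top panels and in the bottom panels with onset at 45 min or later, while in the 5 probe sets lower from 15 min on the CD40 median stands at 0.92.

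Both courses were called against the common 0 min column in 1193 probe sets, 332 of them higher and 765 lower after both stimuli. The 2 comparisons share that column, so the overlap itself is not read as a result, and the sizes are given side by side. In the 332 the median largest change was 0.644 after BCR stimulation and 0.53 after CD40 ligation, and the BCR change was the larger one in 67.8%. In the 765 the medians were -0.673 and -0.533, and the BCR change was the larger one in 70.7%. The courses themselves differed by the test in 176 of the 332 (53%) and in 339 of the 765 (44.3%), against 16.2% of all tested probe sets.

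By 30 min, shared rises were further advanced after BCR stimulation and shared falls after CD40 ligation. Among the 332 higher in both, 54.2% had covered 50% of their largest change by 30 min after BCR stimulation, against 38% after CD40 ligation, whereas by 15 min the shares were 12.3% and 17.8%. Among the 765 lower in both it was 16.2% after BCR stimulation, against 56.9% after CD40 ligation. The BCR course reached that point at an earlier time in 145 of the 332, at the same time in 110 and at a later time in 77. In the 765 it was earlier in 98, at the same time in 203 and later in 464. With each column centred on its median, an alternative chosen after the data were seen, the shares by 30 min were 54.9% after BCR stimulation and 25.1% after CD40 ligation for 195 shared rises, and 17.2% and 71.2% for 912 shared falls. These times were not tested, since each has 1 column.

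The medians show the crossing of the shared falls. In the 765 probe sets the median change at 15 min was -0.09 after BCR stimulation and -0.18 after CD40 ligation, at 45 min -0.39 and -0.37, and at 90 min -0.64 and -0.50. The median difference, which needs no 0 min column, was 0.078 at 15 min and -0.139 at 90 min. In the 332 shared rises the median difference was 0.042 at 15 min, 0.166 at 30 min and 0.115 at 90 min, so BCR stayed ahead throughout.

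The larger changes of each course taken alone were 567 of at least 2-fold after BCR stimulation (2.11% of those tested) and 104 after CD40 ligation (0.387%). Of the 206 that rose at least 2-fold after BCR stimulation, 11.2% had covered 50% of the change by 15 min, 43.7% by 30 min and 76.7% by 45 min. Of the 53 that rose at least 2-fold after CD40 ligation it was 17%, 39.6% and 62.3%. Of those that fell at least 2-fold, 13.3% of 361 had done so by 30 min after BCR stimulation, against 47.1% of 51 after CD40 ligation, and 68.4% and 86.3% by 45 min. For the rises the order of the stimuli at 15 min was thus the reverse of that at 30 and 45 min.

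Opposite directions against 0 min were found in 96 of the 26852 probe sets tested, or 8.05% of the 1193 called in both courses. Of the 96, 48 were higher after BCR stimulation and lower after CD40 ligation and 48 the other way. The first 48 had median largest changes of 0.419 after BCR stimulation and -0.483 after CD40 ligation, and the other 48 had -0.529 and 0.403. Only 2 had both changes at 2-fold or more. Signs were opposite at all 5 times in 11 of the first 48 and in 6 of the other 48, and at 90 min in 26 and 40. The difference between the courses passed its own test in 43 and 44 of them, though it shares columns with the calls that chose them.

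**Figure D3:**
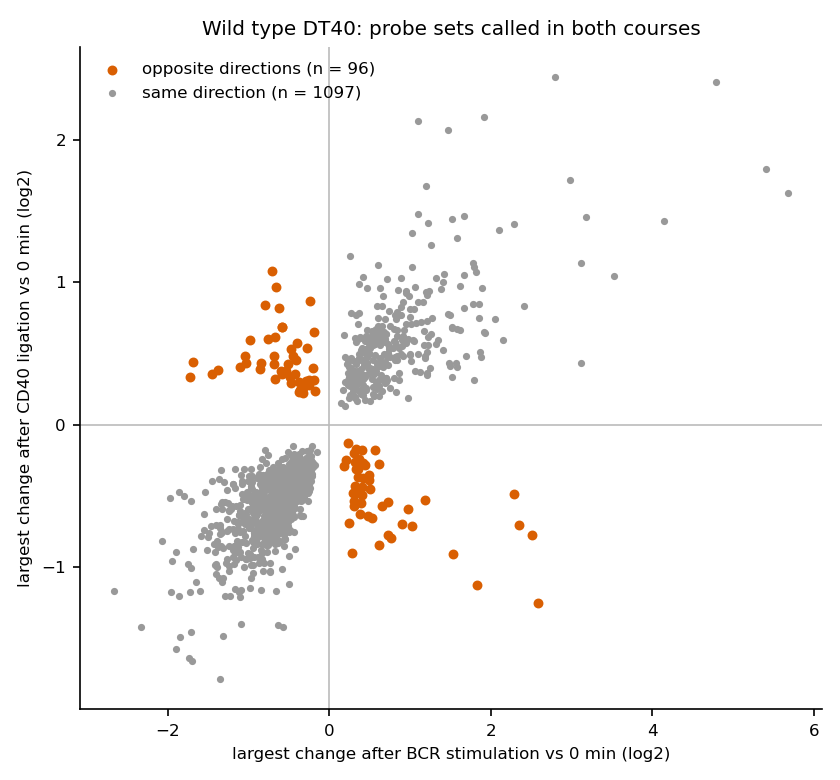
Largest change against 0 min on the log2 scale after CD40 ligation (vertical axis) against that after BCR stimulation (horizontal axis) for the 1193 probe sets called in both wild type courses, each point being 1 probe set. Orange points are the 96 with opposite directions and grey points the 1097 with the same direction; most orange points lie within 1 log2 unit of 0 on both axes, and 2 lie beyond it on both.

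The number of opposite probe sets changed with the scaling and with the times used. After the columns had been centred on their medians, 68 were counted, 42 higher and 26 lower after BCR stimulation, and 55 of the original 96 were among them. Without the 90 min columns the count was 14, with 12 of the 96 kept, and without the 45 and 60 min columns it was 38 and 47, with 37 and 45 kept. Across the 5 fits that each left out 1 time, 10 of the 96 were kept in every fit, 4 higher and 6 lower after BCR stimulation.

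Without the 0 min column, opposite slopes between 15 and 90 min were called in 21 of the 26852 probe sets tested. A slope was called after both stimuli in 296, the 21 included. Of these, 19 fell after BCR stimulation and rose after CD40 ligation and 2 did the reverse, while 116 rose and 159 fell after both. The median absolute slope of the 21 over 75 min was 0.472 after BCR stimulation and 0.477 after CD40 ligation, and 13 of them were also among the 96. Slopes of 2-fold or more after both stimuli were found in 0 of the 21. Without the 90 min columns 5 opposite slopes were called, all falling after BCR stimulation, and without the 15 min columns 10.

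The clearest opposite probe set, the brightest at its peak, was raised at every time by BCR stimulation and lowered from 45 min on by CD40 ligation. It had 519.3, 877.6, 568.1, 400.4 and 296.6 after BCR stimulation, against 141.8, 153.2, 111.5, 88.8 and 61.7 after CD40 ligation, with 146.3 at 0 min. The changes were 2.58 after BCR stimulation (adjusted p = 6.43e-17) and -1.25 after CD40 ligation (adjusted p = 6.64e-09), and the mean difference was 2.24 (standard error 0.06, adjusted p = 1.92e-17). Its slope between 15 and 90 min was -1.18 after BCR stimulation and -1.34 after CD40 ligation, so the opposite directions lie in the level against 0 min and not in the later course.

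The third ranked opposite probe set had the same form, with 521.5, 748.3, 667.7, 528.7 and 329.3 after BCR stimulation, against 245.8, 275.8, 236.4, 191.0 and 137.9 after CD40 ligation, with 258.2 at 0 min. The second ranked had 24.7, 49.996, 56.8, 46.4 and 43.6 after BCR stimulation, against 13.4, 18.2, 14.1, 11.1 and 7.33 after CD40 ligation, with 16.0 at 0 min, and its CD40 call (adjusted p = 0.0123) was lost without the 30, 45 or 90 min columns. The fifth ranked had 87.1, 188.6, 216.6, 173.7 and 159.8 after BCR stimulation, against 38.6, 45.9, 39.3, 30.6 and 22.3 after CD40 ligation, with 38.1 at 0 min, and its CD40 call was lost without the 90 min columns. In all 4, the CD40 values were at their highest at 30 min and at their lowest at 90 min.

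The fourth ranked was the only one of the 5 that fell after BCR stimulation. It had 72.4, 70.9, 62.0, 48.4 and 42.2 after BCR stimulation, against 66.9, 65.6, 78.5, 94.7 and 131.5 after CD40 ligation, with 73.5 at 0 min. The stimuli gave nearly the same level at 15 and 30 min, and the BCR value lay below the CD40 value from 45 min on. Both slopes were called, -0.87 after BCR stimulation (adjusted p = 2.84e-05) and 1.05 after CD40 ligation (adjusted p = 2.14e-05), so here the opposite directions did not need the 0 min column.

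**Figure D4:**
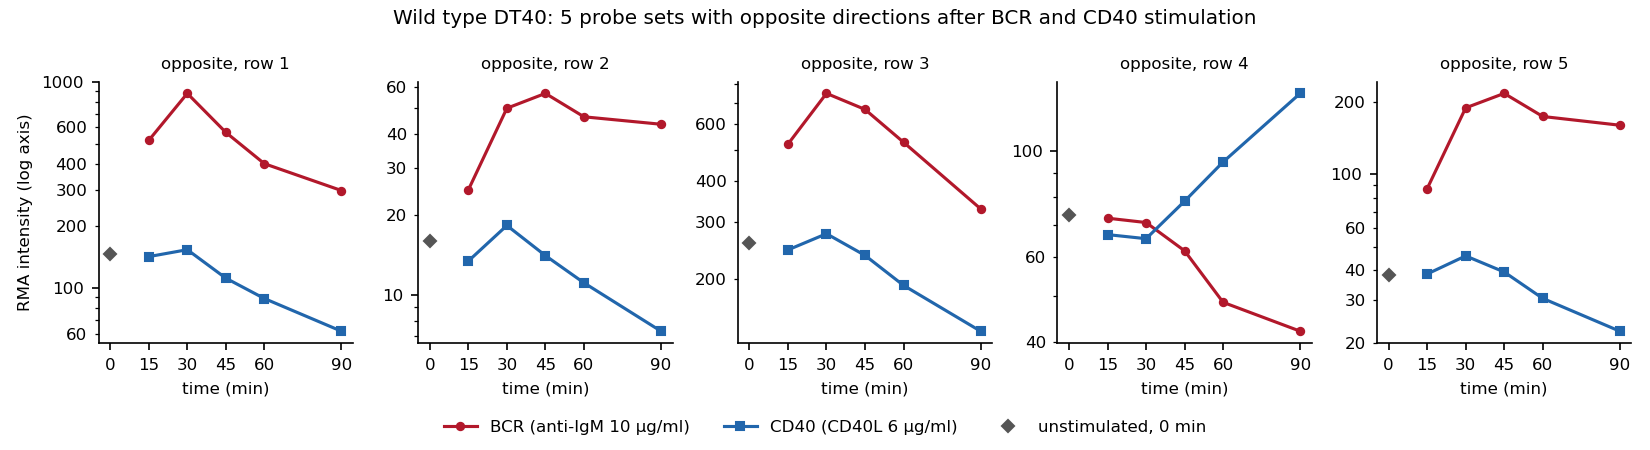
Intensity on a log axis against time in min for the 5 probe sets of opposite directions with the largest smaller-of-both changes, with BCR columns as red circles, CD40 columns as blue squares and the unstimulated column as a grey diamond, each point being 1 column. In ranks 1, 2, 3 and 5 the BCR values lie above and the 90 min CD40 value below the level at 0 min, and in rank 4 the curves cross between 30 and 45 min.

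The differences were then looked up in columns that the comparison did not use. In IKKβSA cells at the same doses, 94.2% of the 2052 probe sets with higher BCR level kept that sign in the mean difference, and 1367 were called with it, where 10.8% of all tested probe sets were called higher. In WT + Inh cells 90.8% kept the sign and 1172 were called, against 11.4% of all tested. In wild type cells the share with the same sign was 84% at the lowest doses (0.1 μg/ml of the antibody, 1 μg/ml of the ligand) and 92.8% at the middle doses (1 and 3 μg/ml), with 658 and 995 called, where 3.75% and 5.88% of all tested were called higher. Over all tested probe sets the sign was the same in 65.1% in IKKβSA and 67% in WT + Inh cells, and in 62.5% and 66.5% at the lower doses.

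Of the 2343 probe sets with lower BCR level, 88% kept the sign in IKKβSA cells and 91.6% in WT + Inh cells, with 1078 and 1686 called, where 6.83% and 15.8% of all tested were called lower. At the lowest doses 92% kept it and 1085 were called, against 7.76% of all tested, and at the middle doses 96.6% kept it and 1815 were called, against 13.5%. The 54 with at least 2-fold higher BCR level kept the sign without exception in the IKKβSA, the WT + Inh and both lower dose comparisons. Their median difference was 1.51 in IKKβSA cells and 1.32 in WT + Inh cells, against 1.49 in wild type cells, and it was 1.05 at the lowest and 1.41 at the middle doses. A choice made at the highest dose in wild type cells can favour a larger value there.

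The falling differences had smaller medians in all of these other columns than in wild type cells at the highest doses. For the rising ones this was so mainly at the lowest doses. The 242 rising differences changed by a median of 0.948 in IKKβSA and 0.714 in WT + Inh cells, against 0.886 in wild type cells, and by 0.193 at the lowest and 0.69 at the middle doses. The 645 falling ones changed by -0.263 in IKKβSA and -0.269 in WT + Inh cells, against -0.846 in wild type cells, and by -0.44 at the lowest and -0.466 at the middle doses. The sign was kept by 83.7% of the falling ones in IKKβSA and 87.3% in WT + Inh cells, against 46.3% and 49% of all tested probe sets. At the lowest and middle doses it was 94.7% and 95.5%, against 65.7% and 58.7% of all tested. Of the rising ones 75.2% kept it at the lowest doses and 93.4% or more in the other columns. Whether the medians differ between cell conditions was not tested. These probe sets were chosen by their change in wild type cells at the highest doses, which favours a larger change there.

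Most opposite probe sets kept the sign of their mean difference in these columns. The calls that chose them came from curves fitted to all columns of the series, these included. For these probe sets the look-up is therefore not independent of the choice. Whether their directions against unstimulated cells stayed opposite in these columns was not tested. Of the 48 that were higher after BCR stimulation, 47 kept the sign of the mean difference in IKKβSA cells, 45 in WT + Inh cells, and 39 and 44 at the lowest and middle doses. Of the 48 that were lower, it was 43 in IKKβSA cells, 46 in WT + Inh cells, and 45 and 48 at those doses. For the opposite probe set of rank 1 the mean difference was 2.74 in IKKβSA and 2.25 in WT + Inh cells, against 2.24 in wild type cells, and it was 1.08 at the lowest and 1.70 at the middle doses.

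A test of the mean difference itself between cell conditions called 114 probe sets for IKKβSA against wild type cells (0.425%) and 1033 for WT + Inh against wild type cells (3.85%; limma, 20 columns each). For IKKβSA the number ranged between 15 and 552 when 1 time was left out and was 35 with centred columns, so it says little. For WT + Inh it was 339 without the 45 min and 582 without the 15 min columns, so the numbers that follow depend on these columns. In the fit to all times, 225 of the 1033 were among the 2052 with higher BCR level in wild type cells, and in 200 of these the difference was weaker in WT + Inh cells. Of the probe sets with lower BCR level 258 were called, with a weaker difference in 147. A choice made in wild type cells favours a weaker difference elsewhere.

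Both early ranked probe sets differed by cell condition in the same way. The second ranked had a mean difference of 1.18 in WT + Inh cells, against 3.96 in wild type cells (difference -2.78, adjusted p = 2.4e-11), and of 5.58 in IKKβSA cells (difference 1.63 from wild type, adjusted p = 0.00015). The third ranked had 2.59 in WT + Inh cells (difference -1.17, adjusted p = 0.000543) and 6.65 in IKKβSA cells (difference 2.88, adjusted p = 1.77e-08), against 3.77 in wild type cells. The first ranked had 2.34 in WT + Inh cells, against 5.21 in wild type cells (difference -2.87, adjusted p = 1.8e-05), and 4.80 in IKKβSA cells, which did not pass the test (difference -0.41, adjusted p = 0.791). The gap between the stimuli was thus smaller in WT + Inh cells in all 3, and larger in IKKβSA cells in the 2 early ones. The fourth was also smaller in WT + Inh cells (difference -1.12, limma adjusted p = 0.0256), but the fifth was not (0.24, adjusted p = 0.832). In IKKβSA cells neither of them passed the test. No values with 1 time left out are given for these differences between cell conditions.

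**Figure D5:**
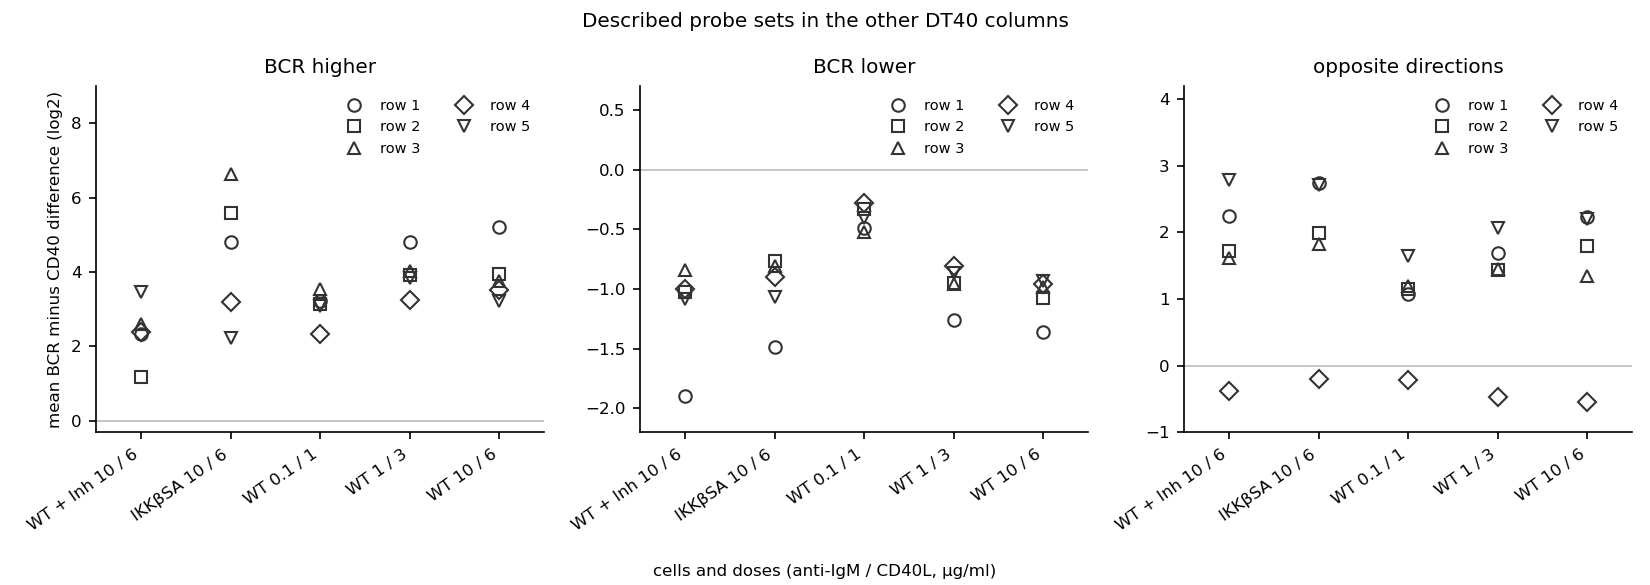
Mean BCR minus CD40 difference on the log2 scale (vertical axis) in WT + Inh and IKKβSA cells at the highest doses and in wild type cells at 3 pairs of doses (horizontal axis), for the 5 probe sets each with the largest positive, the largest negative and the opposite responses in wild type cells. Each symbol is 1 probe set and 1 mean over 5 times, with no error bar; no symbol changes side of 0, and the spread among the BCR-higher probe sets is widest in IKKβSA cells, with values between 2.23 and 6.65.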

How the data were processed

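The authors deposited intensity values on a linear scale for 38361 probe sets in 53 columns, made with RMA according to the submitters' processing notes, which give no version. Each column stands for 2 biological replicates, and the way of combining them is not stated in the sources used here. No scanner files were used here, and depth is set by the number of columns, 1 per condition and time. Values were taken to log2 without an offset. A filter at the 30th percentile of the mean log2 level (1.05, an intensity of 2.07) removed 11509 probe sets.

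Fits were made with limma 3.58.1 in R 4.3.3, with a trend of the error with intensity, and p-values were adjusted after Benjamini and Hochberg over 26852 probe sets. The mean BCR minus CD40 difference and its change with time came from the 10 stimulated columns, with time as a factor, stimulus, and stimulus by centred time (3 residual degrees of freedom). The coefficient of the last term was scaled to the 75 min between 15 and 90 min. Courses were natural cubic splines (knots at 25 and 50 min, boundaries at 0 and 90 min) fitted to all 53 columns (33 parameters, 20 residual degrees of freedom) and tested by limma's F-test. Slopes were fitted within each stimulus, and cell conditions were compared over 20 columns (6 residual degrees of freedom each). A probe set was called at an adjusted p under 0.05, and the direction of a course is that of its largest measured change. All p-values measure scatter around these fits and no spread between cultures.

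Rows are described by a fixed rule: the 5 called with the largest mean difference in each direction, the 5 with the largest change of it with time in each direction, and the 5 of opposite direction with the largest smaller change, all with a mean intensity of at least 10 over 11 columns. The comparison and its lists were chosen with earlier results of these data known. The platform table gives 1 symbol for 27168 IDs, several for 177 and none for 11016, and served only for the check of whether IDs and values pair. Alternatives were other filters, an offset of 4, centred columns, leaving out each time, a 2-fold minimum, other spline settings and other error terms. The tests were checked on simulated data.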

Additional observations from a re-analysis of the deposited data

Results flagged for a closer look

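Results are given here because a test found the BCR minus CD40 difference to differ between cell conditions (limma, adjusted p under 0.05). For IKKβSA against wild type cells this held for 114 probe sets, and for WT + Inh against wild type cells for 1033.

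Among the probe sets described by rank, the mean difference of the first with higher BCR level was lower in WT + Inh than in wild type cells (difference -2.87 on the log2 scale). The second was lower in WT + Inh cells (-2.78) and higher in IKKβSA cells (1.63), and the third likewise (-1.17 in WT + Inh and 2.88 in IKKβSA cells, each against wild type). The fourth was lower in WT + Inh cells (-1.12). The first with lower BCR level had a more negative difference in WT + Inh than in wild type cells (-0.54).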

How the results depend on the processing

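With each time left out in turn, the counts ranged from 2696 to 5128 for the mean difference, 287 to 918 for its change with time, 2266 to 5176 for the difference between courses, 3186 to 6348 for the BCR course, 575 to 2664 for the CD40 course, 14 to 129 for opposite directions and 5 to 20 for opposite slopes. For the mean difference in IKKβSA cells they ranged from 3028 to 5609, for IKKβSA against wild type cells from 15 to 552, and for WT + Inh against wild type cells from 339 to 1383. A 2-fold minimum left 56 mean differences, 254 changes with time, 332 course differences, 567 BCR and 104 CD40 courses, 2 opposite directions and 0 opposite slopes. A fit with no stimulus by time term called 2500 mean differences (1319 higher, 1181 lower), and 2 spline degrees of freedom called 2823 CD40 courses. Centred columns left 35 calls for IKKβSA against wild type cells. They also moved the split of the BCR course to 1044 higher and 4332 lower (1650 and 3470 as deposited), of the CD40 course to 395 and 1263 (688 and 1076), and of the mean difference in IKKβSA cells to 3580 and 1167 (2900 and 1833). For the described probe sets, 265 of 269 values under the other filters, the offset, the centring and each time left out kept direction and call, and 4 lost the call, all in the CD40 course of the opposite probe sets of ranks 2 and 5. No paired analysis was possible because replicate numbers do not exist here, with 1 column per condition and time; the pairing of the stimuli by time is part of the comparison itself.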
